A study of Mus musculus with 4 samples.

Results

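The complement and acute phase genes described here are Cfd, Cfb, C3, C4b, Serping1, Itih4, Hp, Lcn2 and Saa3. They were taken as every array probe that carries one of these gene names, which gave 9 of the 22328 named genes and 12 of the 55681 probes. The set was picked because Cfd and Itih4 lie among the largest differences between these same arrays. The differences of the members are therefore a description of values that helped to choose them, and no test is attached to any of them. None of the 9 genes was left out for a low signal.

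Islets of the pancreas were collected from C57BL/6 mice aged 24 weeks, and total RNA of each group was hybridised to 1 one-colour Agilent array. The 4 groups were transgenic males given an E2 implant and sampled 6 weeks later (male Tg E2), transgenic females (female Tg), transgenic males whose label adds the word diabetic (male Tg), and wild-type males (male WT). E2 is the usual abbreviation of estradiol, a sex steroid. The labels neither name the transgene and its promoter nor state how many mice gave RNA for an array. No wild-type female array and no transgenic male array with an empty implant was analysed here. The word diabetic is given here for the male Tg label alone. Sex therefore cannot be told apart from that label when female Tg is set against male Tg. The same holds for the implant in male Tg E2 against male Tg, and for the transgene in male Tg against male WT. E2 also cannot be told apart from the implant itself. With 1 array a group, every value below compares 2 arrays and has no replicate check. The comparisons share arrays, so their values are given side by side and are not independent of each other.

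Complement is a cascade of blood proteins in which C3 is cleaved by convertases. The classical and lectin pathways build their convertase from C4 and C2, and the alternative pathway builds its own from factor B once factor D has cut it. Acute phase proteins are secreted proteins, most of them made by the liver, whose blood level shifts during inflammation under cytokines such as interleukin 6 and interleukin 1. In the pancreas, local expression of several of these genes is known from inflamed exocrine tissue and from islet cells exposed to cytokines.

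Levels are log2 values of the background-corrected probe signal relative to the 75th percentile of the same array, so a level of 0 stands at that percentile, and a difference of 1 is a 2-fold difference. A level belongs to its probe, and levels are compared between arrays only, never between genes. Errors are standard errors (SE) of a difference from the scanner software's error model. They cover the measurement on the array and not the spread between mice. Between 49.9% and 54.8% of spots were well above background on an array, no spot was saturated, and the 10 beta cell markers examined were above background on all 4 arrays. The 9 members were above background on the male Tg E2, female Tg and male Tg arrays, and 8 of them were so on the male WT array, where the Cfd probe was not.

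Most of the members were brighter on the transgenic male array than on the wild-type male array. On the male Tg array 7 of the 9 were at least 2-fold higher than on the male WT array and none was at least 2-fold lower, where 19.0% of all 15727 genes with a value were higher by that amount and 8.71% lower. Serping1 and Saa3 lay between. The median difference of the 8 members measured on both arrays was 2.82 log2, against −0.21 log2 for all measured genes. On the male Tg E2 array 6 members stood at least 2-fold below male Tg, and 1, Lcn2, stood at least 2-fold above it. Over all genes 9.08% were lower and 2.97% higher in that comparison, and the median was −1.31 log2 over the members against 0.12 log2 over all genes.

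Set against male Tg, the female Tg array had 4 members at least 2-fold lower, Cfd, Itih4, Hp and Lcn2, and 0 at least 2-fold higher. The background was 10.3% lower and 3.95% higher, and the member median was −0.80 log2 against 0.10 log2 over all genes. The implanted males still differed from the wild type. The male Tg E2 array had 7 members at least 2-fold higher than the male WT array and 0 at least 2-fold lower, where 10.9% of genes were higher and 2.9% lower. The member median there was 2.01 log2, against −0.09 log2 over all genes. Because the members were picked from these contrasts, nothing is read from the gap between their counts and the background.

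**Figure D1:**
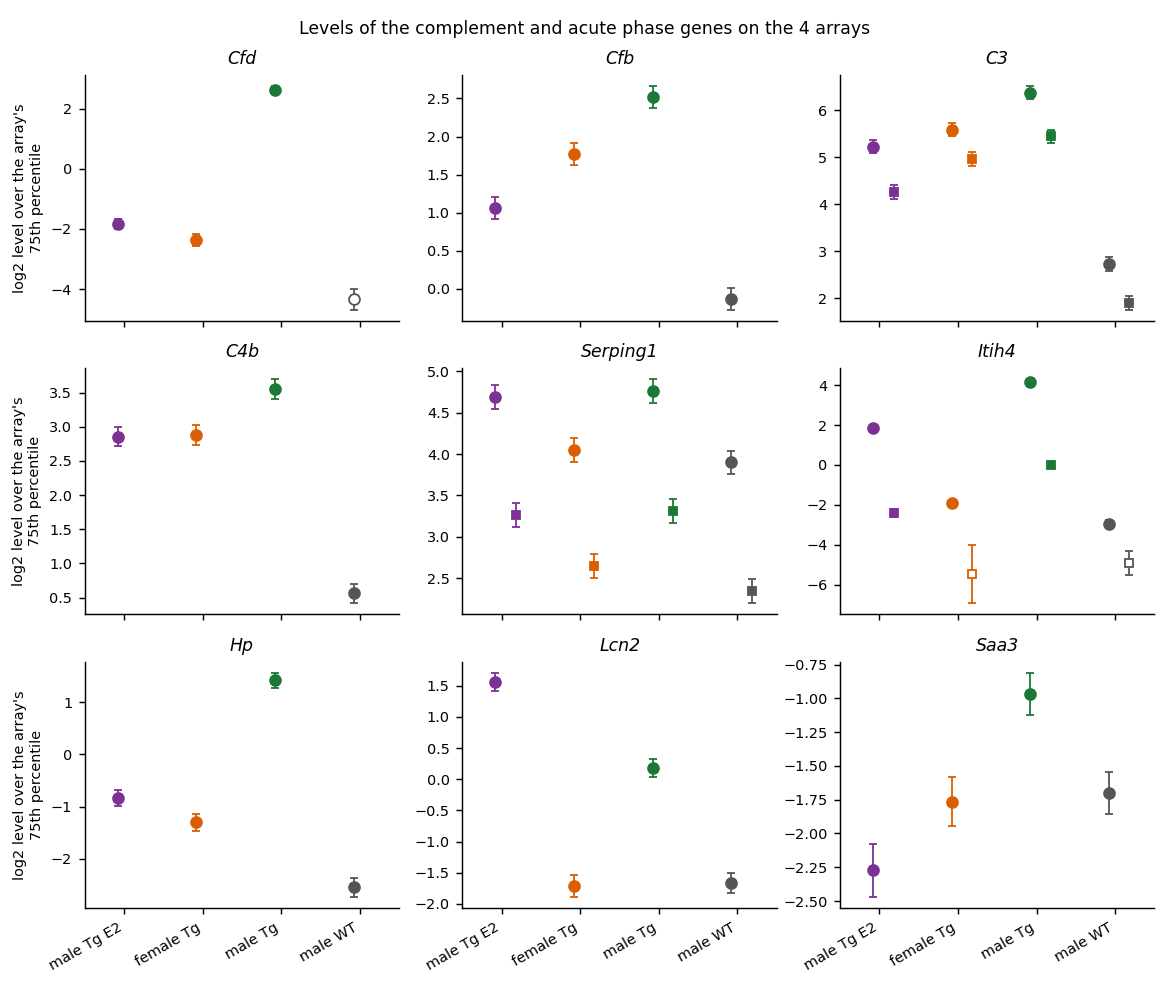
Level of each of the 9 genes (log2, relative to the 75th percentile of the array) on the male Tg E2, female Tg, male Tg and male WT arrays, 1 array per group, with error bars of 1 standard error from the scanner software's error model. Circles are the main probe, squares the second probe of C3, Serping1 and Itih4, and open marks are not well above background. The male Tg array is highest in every panel but that of Lcn2, where the male Tg E2 array is highest at 1.57.

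Cfd encodes complement factor D, also called adipsin, the serine protease that cuts factor B in the alternative pathway; it is abundant in fat tissue. Its probe lies at chr10:79355302-79355361 on the plus strand of mouse build mm9. The level of Cfd was −1.85 on the male Tg E2 array, −2.36 on the female Tg array and 2.61 on the male Tg array, and it was −4.34 on the male WT array, where the probe was not well above background. The male Tg array thus stood far above the other 3. The male Tg level was at least 118-fold higher than that of male WT (at least 6.88 log2). The male Tg E2 level was 22.1-fold lower than male Tg (−4.47 log2, SE 0.22), the second lowest of the 14616 genes measured in that comparison. The female Tg level was 31.4-fold lower than male Tg (−4.97 log2, SE 0.25). The male Tg E2 and female Tg levels differed from each other by 0.51 log2, less than 2 SE, and the male Tg E2 level was at least 5.32-fold above male WT. When background was instead corrected by the normexp method, the bound for male Tg over male WT came to between 4.58 and 4.72 log2, and that for male Tg E2 over male WT to between 0.82 and 1.07 log2.

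Cfb encodes factor B, the protease precursor of the alternative pathway convertase. Its probe spans 357 bases of genome at chr17:34993502-34993858 (mm9, minus strand), more than its 60 bases, so it bridges a gap between aligned blocks. Cfb had a level of 1.06 on the male Tg E2 array, 1.77 on the female Tg array, 2.52 on the male Tg array and −0.13 on the male WT array. All 4 neighbours in this order, male Tg, female Tg, male Tg E2 and male WT, were separated by more than 2 SE. The male Tg level exceeded male WT 6.30-fold (2.65 log2, SE 0.21), and the male Tg E2 level was 2.77-fold below male Tg (−1.47 log2, SE 0.20). Female Tg was 1.69-fold below male Tg, short of 2-fold.

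C3 encodes the central component of the cascade, on which all 3 pathways converge. It is read by a probe printed in 10 spots per array, at chr17:57343416-57343475, and by a single-spot probe at chr17:57343678-57343737 (mm9, minus strand). The level on the 10-spot probe was 5.22 on the male Tg E2 array, 5.59 on the female Tg array, 6.38 on the male Tg array and 2.73 on the male WT array. All 3 transgenic arrays lay well above the wild type, and on this probe male Tg E2 and female Tg differed by less than 2 SE. The 10 spots had a standard deviation of 0.036, 0.028, 0.046 and 0.050 log2 in that order of arrays, which covers spotting on 1 array and not the spread between mice. The male Tg level was 12.5-fold above male WT (3.65 log2, SE 0.20), and the male Tg E2 level was 2.22-fold below male Tg (−1.15 log2). The single-spot probe gave 3.54 and −1.18 log2 for these differences. It set male Tg E2 and female Tg farther apart, at levels of 4.27 and 4.96. For female Tg over male Tg it gave −0.49 log2, against −0.79 log2 on the 10-spot probe. After quantile normalization, or in the deposited series matrix, the difference between male Tg E2 and male Tg fell short of 2-fold, and the value closest to 0 over all settings was −0.96 log2.

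The C3 promoter is shown because 3 matches to the C/EBP motif, the target of a transcription factor family of the acute phase response, lie close together just before the start of transcription. The 300 bases (RefSeq, GRCm38.p6, chr17:57228087-57228386, minus strand) run from 250 before to 50 after the start, with the matches at −70, −58 and −45 (the last on both strands) in capitals.
C3: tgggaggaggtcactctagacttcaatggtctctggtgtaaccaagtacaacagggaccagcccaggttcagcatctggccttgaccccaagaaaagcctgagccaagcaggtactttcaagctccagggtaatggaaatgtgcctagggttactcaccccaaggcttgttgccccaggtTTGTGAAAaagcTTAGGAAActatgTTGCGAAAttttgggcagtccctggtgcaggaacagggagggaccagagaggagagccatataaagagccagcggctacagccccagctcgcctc
The motif was spelled TTNNGNAA and searched on both strands, and matches may overlap those of other motifs. It is common: 40.7% of the 32851 promoters in the table hold it, so a match is a description of the letters only.

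C4b encodes complement C4, a shared component of the classical and lectin pathways. Its probe, at chr17:34865328-34865387 (mm9, minus strand), also lists a transcript of the near-identical paralog C4a, so signal of the 2 genes cannot be told apart. C4b had a level of 2.86 on the male Tg E2 array, 2.88 on the female Tg array, 3.55 on the male Tg array and 0.56 on the male WT array. The male Tg E2 and female Tg levels were 0.03 log2 apart, within error, and both were below male Tg by less than 2-fold. Male Tg exceeded male WT 7.95-fold (2.99 log2, SE 0.20), and male Tg E2 exceeded male WT by 2.29 log2. The implant comparison gave −0.70 log2 and the female comparison −0.67 log2 against male Tg.

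Serping1 encodes C1 inhibitor, the serpin that blocks the C1 and lectin pathway proteases and also plasma kallikrein. Its main probe lies at chr2:84605663-84605722, and the other covers 1507 bases of genome at chr2:84605968-84607474 (mm9, minus strand). The main probe had a level of 4.69 on the male Tg E2 array, 4.05 on the female Tg array, 4.76 on the male Tg array and 3.90 on the male WT array. The arrays fell into pairs here, with both transgenic male arrays above the female Tg and male WT arrays, and within each pair the gap was below 2 SE. No difference of Serping1 reached 2-fold: male Tg was 1.81-fold above male WT (0.86 log2, SE 0.20). The difference of male Tg E2 from male Tg was −0.07 log2, and its sign turned, to 0.05 log2, under normexp correction with percentile scaling. The other probe gave 0.96 log2 for male Tg over male WT.

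Itih4 encodes inter-alpha-trypsin inhibitor heavy chain H4, a liver-made plasma protein that rises in the acute phase. One probe lies near the end of the transcript at chr14:31714970-31715029, and an internal one at chr14:31711222-31711281 (mm9, plus strand). The end probe had a level of 1.87 on the male Tg E2 array, −1.92 on the female Tg array, 4.15 on the male Tg array and −2.97 on the male WT array. Each step in that order, from male Tg down through male Tg E2 and female Tg to male WT, was larger than 2 SE. The male Tg level was 140-fold above male WT (7.12 log2, SE 0.25), the fourth highest of 14382 measured genes. Male Tg E2 was 4.85-fold below male Tg (−2.28 log2, SE 0.20), yet still 28.7-fold above male WT (4.85 log2). Female Tg was 67.4-fold below male Tg (−6.07 log2, SE 0.24). Under normexp correction the first of these differences shrank to between 5.48 and 5.60 log2.

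The internal probe of Itih4 is shown because it reads a separate stretch of the same transcript. Its 60 bases are given in lower case.
Itih4 internal probe: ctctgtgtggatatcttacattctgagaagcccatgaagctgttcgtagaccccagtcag
The internal probe had a level of −2.41 on the male Tg E2 array and −0.01 on the male Tg array, and it was not well above background on the female Tg and male WT arrays. Male Tg was at least 19.1-fold above male WT on this probe, male Tg E2 was 5.31-fold below male Tg, and female Tg was at least 10.8-fold below male Tg. Both probes thus put the arrays in the same order as far as the dimmer one could measure.

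The Itih4 promoter (RefSeq, GRCm38.p6, chr14:30886226-30886525, plus strand) is shown for its match to the STAT motif, the target of the factors that relay interleukin 6 signals. The match, in capitals, lies at −51 and reads as a match on both strands.
Itih4: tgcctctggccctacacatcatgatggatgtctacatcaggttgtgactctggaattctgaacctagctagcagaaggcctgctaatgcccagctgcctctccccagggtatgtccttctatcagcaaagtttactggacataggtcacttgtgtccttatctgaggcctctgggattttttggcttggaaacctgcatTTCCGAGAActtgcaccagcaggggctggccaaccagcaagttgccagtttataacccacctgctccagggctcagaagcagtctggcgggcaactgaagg
The motif was spelled TTCNNNGAA, and 8.30% of the promoters hold it on either strand. The kappa B motif, searched by name in the same way, was found in 8.46% of promoters and in none of the 5 member promoters given (Cfd, C3, Itih4, Lcn2 and Saa3). The Cfd promoter held none of the 3 motifs in this window. Promoters of C4b, Cfb, Hp and Serping1 were not analysed here.

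**Figure D2:**
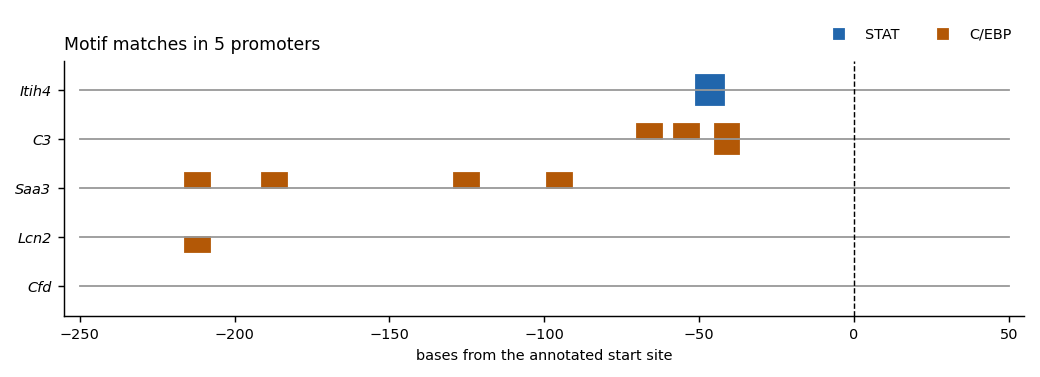
Motif matches in the promoters of the 5 members with a given sequence, by distance in bases from the start of transcription (the dashed line), with boxes above a line for plus-strand and below it for minus-strand matches, coloured by motif. Saa3 carries 4 C/EBP matches and C3 carries 3, Lcn2 carries 1, Itih4 carries 1 STAT match and Cfd carries none.

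Hp encodes haptoglobin, the plasma protein that captures free haemoglobin. Its probe lies at chr8:112099045-112099104 (mm9, minus strand). Hp had a level of −0.83 on the male Tg E2 array, −1.30 on the female Tg array, 1.42 on the male Tg array and −2.55 on the male WT array. Male Tg was the highest by a wide margin and male WT the lowest, with male Tg E2 and female Tg in between and 0.47 log2 apart, just over 2 SE. Male Tg was 15.7-fold above male WT (3.97 log2, SE 0.23). Male Tg E2 was 4.76-fold below male Tg (−2.25 log2, SE 0.21) and female Tg was 6.59-fold below it (−2.72 log2, SE 0.22). Normexp correction lowered the excess of male Tg over male WT to between 2.74 and 2.84 log2, and that of male Tg E2 over male WT, 1.72 log2, to between 0.83 and 1.01 log2.

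Lcn2 encodes lipocalin 2, which binds bacterial siderophores and so withholds iron from bacteria. It alone among the members was brightest on the array of implanted males. The probe (chr2:32240199-32240258, mm9, minus strand) had a level of 1.57 on the male Tg E2 array, −1.71 on the female Tg array, 0.18 on the male Tg array and −1.66 on the male WT array. The female Tg and male WT levels differed by 0.04 log2, within error, and both were far below the transgenic males. Male Tg E2 was 2.62-fold above male Tg (1.39 log2, SE 0.21) and 9.38-fold above male WT (3.23 log2, SE 0.21). Male Tg was 3.58-fold above male WT (1.84 log2, SE 0.21), and female Tg was 3.70-fold below male Tg (−1.89 log2, SE 0.23).

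Saa3 encodes serum amyloid A3, in mice an acute phase protein made outside the liver as well, for example by macrophages and fat cells. Its probe lies at chr7:53970389-53970448 (mm9, minus strand). Saa3 had a level of −2.27 on the male Tg E2 array, −1.76 on the female Tg array, −0.97 on the male Tg array and −1.70 on the male WT array. Only the male Tg array stood apart by more than 2 SE from its neighbour, and male Tg E2 was the lowest. Male Tg E2 was 2.47-fold below male Tg (−1.31 log2, SE 0.25) and 1.49-fold below male WT (−0.57 log2, SE 0.25). Under normexp correction the first difference came to between −0.85 and −0.70 log2, short of 2-fold.

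The promoters of Lcn2 (chr2:32387690-32387989) and Saa3 (chr7:46715627-46715926), both on the minus strand and from RefSeq in build GRCm38.p6, are set together because these 2 genes differed in sign between the male Tg E2 and male Tg arrays. That is not particular to Saa3, as Lcn2 differed in sign from every other member there. C/EBP matches are in capitals, at −216 (minus strand match) in Lcn2 and at −216, −191, −129 and −99 in Saa3.
Lcn2: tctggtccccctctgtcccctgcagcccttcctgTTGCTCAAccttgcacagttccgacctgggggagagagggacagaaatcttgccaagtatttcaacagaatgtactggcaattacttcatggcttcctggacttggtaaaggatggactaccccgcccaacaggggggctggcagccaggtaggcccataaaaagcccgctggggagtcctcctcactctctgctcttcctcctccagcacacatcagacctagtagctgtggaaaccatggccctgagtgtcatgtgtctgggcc
Saa3: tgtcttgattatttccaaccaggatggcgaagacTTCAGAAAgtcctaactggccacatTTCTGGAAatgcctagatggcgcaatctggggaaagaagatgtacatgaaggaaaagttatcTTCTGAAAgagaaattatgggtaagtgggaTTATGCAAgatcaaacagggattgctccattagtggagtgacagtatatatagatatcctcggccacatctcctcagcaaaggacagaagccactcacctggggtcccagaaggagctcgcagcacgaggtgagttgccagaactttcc
Both promoters held the C/EBP motif and neither held the STAT motif in this window.

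**Figure D3:**
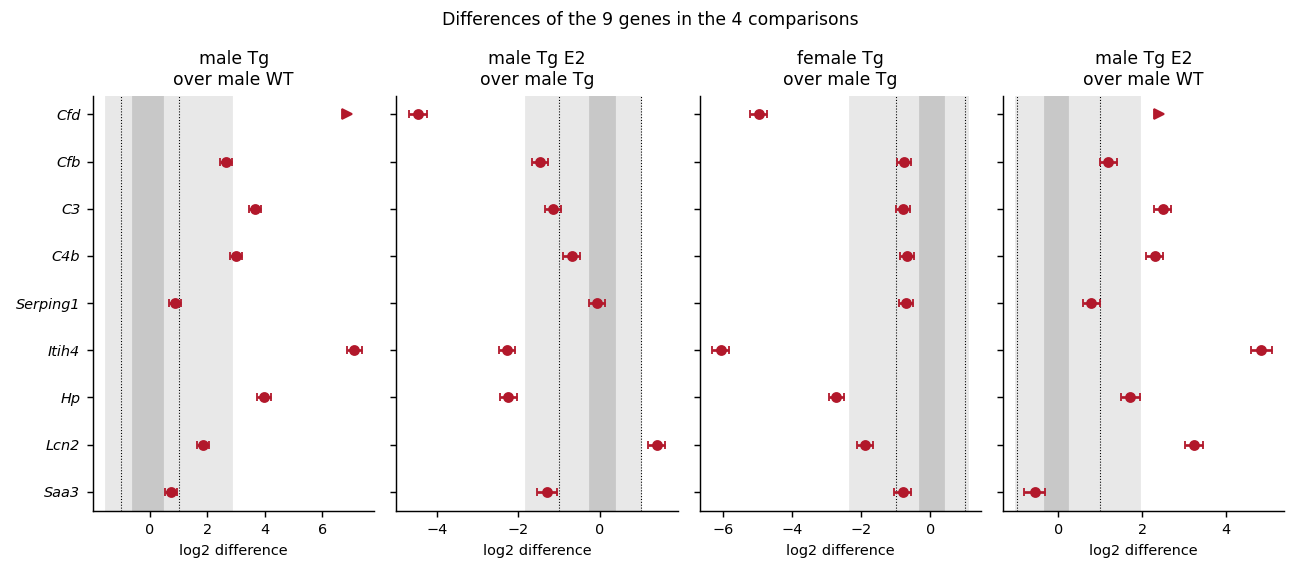
Log2 difference of each member in the 4 comparisons, named as the first array over the second, with error bars of 1 SE from the scanner software's error model; triangles mark bounds, dotted lines 2-fold, and the light band spans the central 95% of all measured genes (the dark band their middle quartiles). Cfd and Itih4 lie farthest from 0 for male Tg over male WT and for female Tg over male Tg. For male Tg E2 over male Tg, Cfd lies farthest, and Itih4 (−2.28) and Hp (−2.25) are within error of each other. Lcn2 is the one member on the positive side there. For male Tg E2 over male WT the Cfd bound of 2.41 is below Itih4, Lcn2 and C3.

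The members did not share a single pattern over the arrays. For distances, levels below the array's lowest signal well above background were raised to it, and each gene was centred on its mean. Between these centred levels on the 4 arrays, C3 and C4b were the closest pair, with a Euclidean distance of 0.52 log2. C4b and Cfb followed at 0.80, and C3 and Cfb at 0.98. In C3, C4b and Cfb all 3 transgenic arrays lay above the wild type by at least 1.19 log2. In Itih4 the female Tg array lay close to male WT, 1.05 log2 above it, while the male Tg E2 array lay 4.85 log2 above it. In Cfd both the male Tg E2 and the female Tg array lay far below male Tg. These distances describe 4 points a gene and carry no test. C4b, Cfb and C2 are neighbours on chromosome 17, where C3 also lies at a distance.

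Of the 16384 genes above background on at least 1 array, the 5 whose centred levels lay nearest to those of Itih4 over the 4 arrays were Reg3g at a distance of 0.37 log2, 2210010C04Rik at 0.60, Rbpjl at 0.77, Gm5409 at 0.79 and Ctrc at 0.80. Reg3g encodes a secreted lectin, Rbpjl a transcription factor of acinar cells, and Ctrc the digestive enzyme chymotrypsin C. Reg3g was 7.25 log2 higher on the male Tg array than on the male WT array and 1.96 log2 lower on the male Tg E2 array than on the male Tg array. The nearest genes to Cfd lay farther off. They were Fgf21, a hormone of fasting, at 1.32, Car3, a carbonic anhydrase, at 1.40, Tdh at 1.42, Sostdc1 at 1.57 and Lypd8 at 1.60. Car3 was below background on female Tg and male WT, where its levels were raised as described. Fgf21 was 5.58 log2 higher on the male Tg array than on the male WT array, 2.75 log2 lower on the male Tg E2 array than on the male Tg array and, on the female Tg array, 4.39 log2 below male Tg.

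Markers of other cell types were read beside the members. Their counts, and those of the pathway lists further on, stand against the share of all genes with a value. Between male Tg and male WT, 19.0% were at least 2-fold higher on male Tg and 8.71% lower. Between male Tg E2 and male Tg, 2.97% were higher on male Tg E2 and 9.08% lower. On female Tg, 3.95% were higher than on male Tg and 10.3% lower. On male Tg E2, 10.9% were higher than on male WT. List counts are over all genes of a list on the array, bounds included, and some had no value. List medians are over measured genes unless bounds are named. For male Tg over male WT, 11 of 13 adipocyte, 12 of 13 hepatocyte, 9 of 13 neutrophil and 10 of 12 macrophage markers had a value. The 20 acinar markers, genes of the enzyme-secreting cells around islets, were all above background on all 4 arrays, and their summed signal, in units of each array's 75th percentile, was 10021 on male Tg E2, 1763 on female Tg, 16537 on male Tg and 1627 on male WT. Of these 20, 18 were at least 2-fold higher on male Tg than on male WT (median 4.51 log2, from 0.76 to 6.27), and 18 were at least 2-fold lower on female Tg than on male Tg (median −4.38 log2). Itih4 followed the same order of arrays, with differences of 7.12 and −6.07 log2 in these comparisons. Between male Tg E2 and male Tg the acinar markers had a median of −0.76 log2, from −1.97 to −0.44, beside −2.28 log2 for Itih4. The part of acinar RNA in the values of Itih4 and of the other members was not tested. Throughout, fewer cells of a type and less RNA per cell cannot be told apart in such bulk RNA.

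Fat cells are a known source of Cfd, and 13 of their markers were read beside it. On male Tg 8 of 13 adipocyte markers were at least 2-fold higher than on male WT (median 1.95 log2) and none 2-fold lower. Between male Tg E2 and male Tg, 3 were at least 2-fold lower on male Tg E2 (median −0.39 log2, beside −4.47 log2 for Cfd). On female Tg 6 were at least 2-fold lower than on male Tg. Adipoq, Retn and Plin1, defining genes of fat cells, were above background on the male Tg array alone, with male Tg at least 2.69, 3.31 and 1.34 log2 above male WT. Because they had a signal on that array only, they could not but be highest there. Pparg and Lpl gave −0.72 and −0.69 log2 for male Tg over male WT, short of 2-fold. Lpl was 0.90 log2 higher on female Tg than on male Tg. Lep and Ucp1 were below background on all 4 arrays. The summed signal of the list was 21.1 on male Tg E2, 20.4 on female Tg, 28.3 on male Tg and 19.7 on male WT. The part of fat cells in the Cfd values was not tested.

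**Figure D4:**
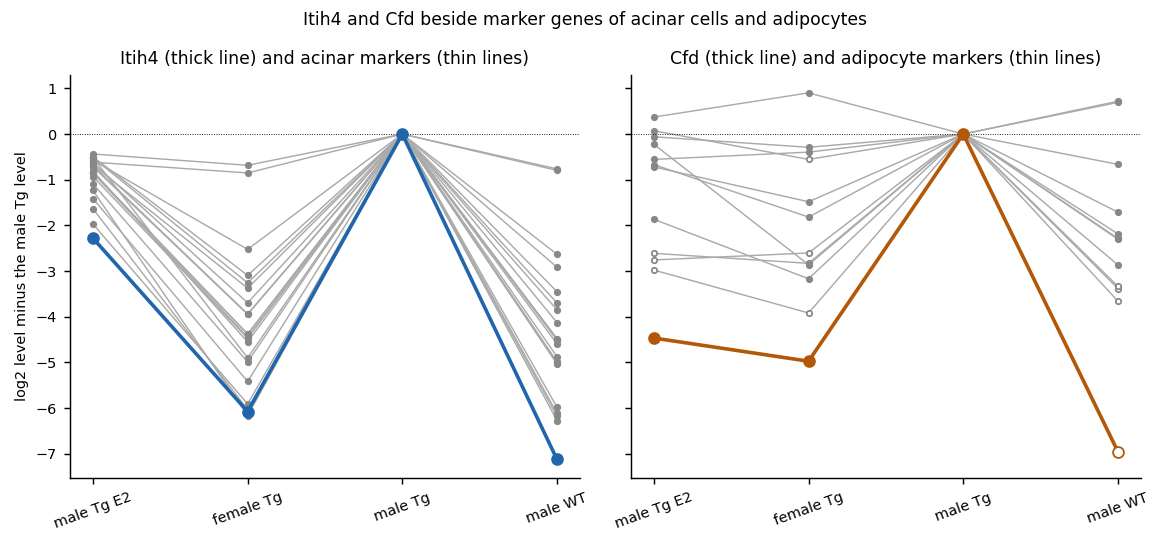
Levels of Itih4 with the acinar markers and of Cfd with the adipocyte markers on the male Tg E2, female Tg, male Tg and male WT arrays (log2, minus the gene's level on the male Tg array; a line joins the values of 1 gene, the thick line is Itih4 or Cfd, and open points are not well above background). Lep and Ucp1, below background on all 4 arrays, are left out, and Adipoq, Retn and Plin1 had a signal on male Tg alone. Itih4 keeps the order of the acinar sums but lies below the acinar range on male Tg E2 and male WT, and Cfd lies 4.47 log2 or more below its male Tg level on the other 3 arrays.

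Hepatocyte markers bear on liver-made proteins such as Hp and Itih4. Of these 13 markers, 7 were at least 2-fold higher on male Tg than on male WT. The list's median was 0.88 log2, or 1.28 log2 with bounds. At least 2-fold from male Tg, 4 were lower and 1 higher on male Tg E2. Alb, the albumin gene, was at least 1.16 log2 higher on male Tg than on male WT, where it was not above background, and Apoh was below background on all 4 arrays. The summed signal was 282 on male Tg E2, 305 on female Tg, 358 on male Tg and 204 on male WT. Neutrophils, which make Lcn2 and Hp, were read by 13 markers, of which 6 were at least 2-fold higher on male Tg than on male WT and 4 at least 2-fold lower on male Tg E2 than on male Tg. S100a8, an abundant neutrophil gene and 1 of these 4, was 1.58 log2 lower on male Tg E2 than on male Tg. The 7 neutrophil markers measured on both arrays ran from −3.76 to 0.25 log2 in that comparison. Their median was −0.45 log2, beside 1.39 log2 for Lcn2. The middle value came to −0.81 log2 once bounds were counted, and 5 of 9 markers with a value did not reach 2-fold. Ngp, Cxcr2, Mmp8 and Mmp9 were below background on all 4 arrays, and the summed signal was 115 on male Tg E2, 95.9 on female Tg, 122 on male Tg and 108 on male WT.

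Macrophages and stromal cells both make C3. Of 12 macrophage markers 8 were at least 2-fold higher on male Tg than on male WT (median 1.37 log2) and 2 were at least 2-fold lower on male Tg E2 than on male Tg (median −0.07 log2, or 0.06 log2 with bounds). Their summed signal was 37.6 on male Tg E2, 42.3 on female Tg, 45.9 on male Tg and 17.5 on male WT, with Cd163 below background on all 4. Stellate cell and matrix markers were higher by at least 2-fold on male Tg than on male WT for 14 of 16 genes (median 2.82 log2) and lower by that amount on male Tg E2 than on male Tg for 1 gene (median −0.01 log2). Their summed signal was 274 on male Tg E2, 171 on female Tg, 303 on male Tg and 75.8 on male WT. The part of these cell types in the values of Hp, Lcn2, C3, C4b and Cfb was not tested.

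The remaining complement genes were read from lists. In the classical and lectin pathways 8 of 15 genes were at least 2-fold higher on male Tg than on male WT and none was at least 2-fold lower (median 1.39 log2). None reached 2-fold between male Tg E2 and male Tg (median −0.41 log2), and 6 were at least 2-fold higher on male Tg E2 than on male WT. The C1 proteases C1ra and C1s1 were 3.16 and 2.73 log2 higher on male Tg than on male WT, and C1qa, a chain of the C1q recognition protein, was 0.27 log2 higher. The pattern recognition lectins Fcna, at 2.40 log2, and Colec11, at no less than 2.67 log2, were also higher on male Tg than on male WT, as was C1rb by no less than 1.53 log2. Mbl2, the mannose-binding lectin gene, was 2.23 log2 lower on female Tg than on male Tg.

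Of 8 genes of the alternative and terminal pathways 6 had a value, and 2 of these were at least 2-fold higher on male Tg than on male WT, Cfp by 1.70 log2 and C9 by at least 3.20 log2, a count near the share over all genes. The list's median was −0.22 log2 over genes measured on both arrays and 0.34 log2 with the bound of C9 included, so its sign depends on that gene. Cfp encodes properdin, which stabilises the alternative pathway convertase, and C9 forms the pore of the membrane attack complex. Both were at least 2-fold lower on male Tg E2 than on male Tg, with differences of −1.07 and −1.56 log2. C6, another part of that complex, was 1.08 log2 higher on male Tg E2 than on male WT. The C5 gene, Hc, differed by −0.23 log2 between male Tg and male WT.

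Complement regulators protect host cells from the cascade. On male Tg 7 of 15 were at least 2-fold higher than on male WT, 5 lay between and 3 had no value. The list's median was 1.17 log2, or 2.04 log2 with bounds. The 7 were led by Cd55, a membrane protein that dissolves convertases, at 3.43 log2, and its copy Cd55b at 3.11 log2. C4bp at no less than 2.91 log2 and Vtn at 2.87 log2 followed. Cd55 was 1.52 log2 lower on male Tg E2 than on male Tg. Cd59a, which blocks the membrane attack complex, differed by −0.08 log2 between male Tg and male WT. Cd46 was above background on the female Tg array alone, at least 2.57 log2 above male Tg.

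Among complement receptors 4 of 9 were at least 2-fold higher on male Tg than on male WT (median 0.85 log2) and 4 were at least 2-fold lower on male Tg E2 than on male Tg (median −0.84 log2). Cr2, the receptor for C3 fragments on B cells, was 3.09 log2 higher on male Tg than on male WT and 1.89 log2 lower on male Tg E2 than on male Tg. C5ar1, the C5a receptor, was above background on male Tg alone, at least 2.27 log2 above male WT. Vsig4, a macrophage receptor for C3 fragments, was at least 1.80 log2 higher on male Tg than on male WT. The integrin genes Itgb2 and Itgax were 1.47 and 1.02 log2 lower on male Tg E2 than on male Tg. C3ar1, the C3a receptor, was 1.22 log2 higher on male Tg E2 than on male WT.

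Of 31 other acute phase protein genes 11 were at least 2-fold higher on male Tg than on male WT, none was at least 2-fold lower, and 12 had no value because they were below background on both arrays. On male Tg E2, 10 were at least 2-fold higher than on male WT. Lrg1, a secreted leucine-rich glycoprotein, was 3.73 log2 higher on male Tg than on male WT and 0.04 log2 higher on male Tg E2 than on male Tg. Cp, the copper-carrying ceruloplasmin gene, gave 3.39 and −0.16 log2 for the same differences. Lbp, which presents bacterial lipopolysaccharide, gave at least 2.74 log2 and then 0.16 log2. Serpina3g, an intracellular serpin, gave 3.39 and −1.64 log2, and Itih5, a relative of Itih4, gave 3.21 and −0.67 log2. Fgb, the fibrinogen beta chain gene, behaved like Lcn2 in that it was brightest with the implant. It was 3.24 log2 higher on male Tg E2 than on male WT, while male Tg was 0.73 log2 above male WT. Its levels on male Tg and male WT, −3.18 and −3.91, were close to the lowest signals well above background there, −3.54 and −4.26. Fga and Fgg, the other fibrinogen chain genes, were below background on all 4 arrays.

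Signalling genes of the acute phase response held differences in both directions. Of 33 genes 28 had a value. On male Tg 11 lay above male WT by at least 2-fold and 3 lay below it by that much. Over all genes these shares were 19.0% and 8.71%, so the count below is near the share over all genes. Between male Tg E2 and male Tg, 3 were higher and 7 lower by at least that amount, where 2.97% and 9.08% of all genes were. Il6, the main inducing cytokine, was above background on the male Tg array alone, at least 3.32 log2 above male WT, with male Tg E2 at least 2.80 log2 and female Tg at least 2.29 log2 below male Tg. Ifng, the interferon gamma gene, was at least 2.20 log2 higher on male Tg than on male WT. The receptor genes Il22ra1 and Osmr were 2.46 and 1.52 log2 higher on male Tg than on male WT, whereas Il1r1 was 2.19 log2 lower.

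Transcription factors of that response likewise differed in direction. Stat3, which relays interleukin 6 signals, differed by −0.82 log2 between male Tg and male WT and by 0.02 log2 between male Tg E2 and male Tg. Its feedback inhibitor Socs3 gave −0.36 and 0.05 log2, and Cebpb gave −0.07 and −0.11 log2. Cebpd, a C/EBP factor of the acute phase, was 1.20 log2 lower on male Tg than on male WT and 1.44 log2 higher on male Tg E2 than on male Tg, while Cebpa was 1.92 log2 higher on male Tg than on male WT. Among 9 receptors and partners of the member proteins, Lrp1, a scavenger receptor, was 1.48 log2 higher and Tlr2, a receptor for serum amyloid A, 1.44 log2 lower on male Tg than on male WT. Tlr4 was at least 1.29 log2 and Hmox1, the haem-degrading enzyme gene, 1.08 log2 lower on female Tg than on male Tg.

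**Figure D5:**
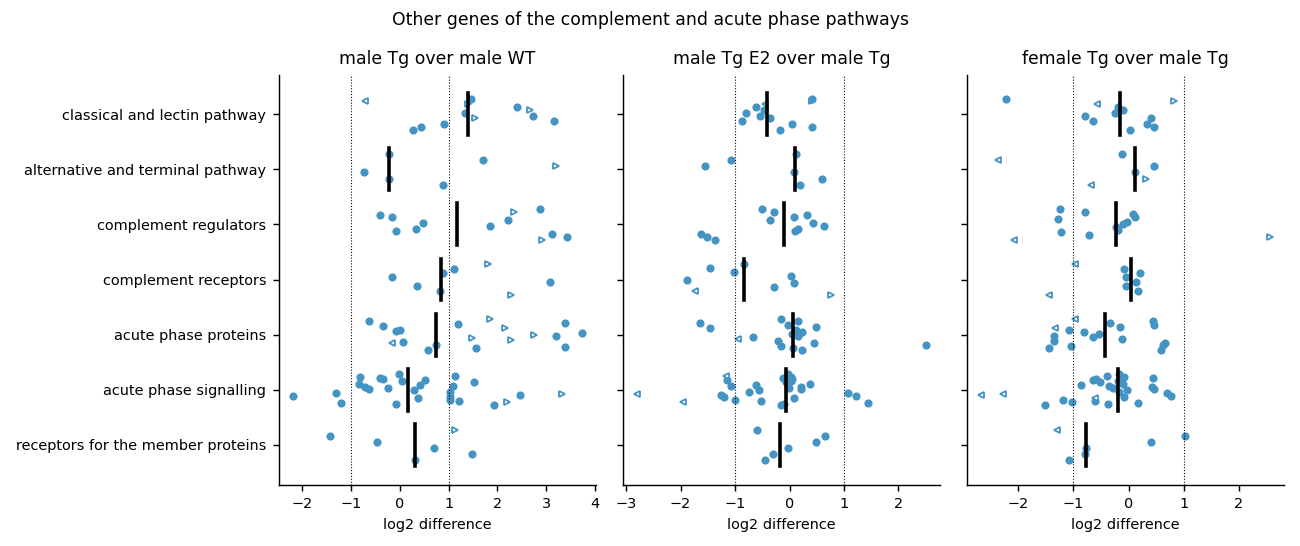
Log2 differences of the genes in each complement and acute phase list for male Tg over male WT, male Tg E2 over male Tg and female Tg over male Tg, 1 point per gene, open triangles for bounds, a bar at the median of the measured genes and dotted lines at 2-fold. The median for male Tg over male WT is 1.39 in the classical and lectin list and −0.22 in the alternative and terminal list, where it is 0.34 with the bound of C9 included.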

How the data were processed

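The values came from the 4 deposited scanner files, whose processed signal is a linear, background-corrected Cy3 intensity per the file headers, which name Feature Extraction 10.7.1.1; the submitters' processing notes name 9.5.1.1. The deposited series matrix, used as an alternative, holds linear intensity with the same quantiles in every column. Probe positions are those of mm9, per the file headers. All arrays lay on 1 slide.

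The log2 signals of the unflagged spots of a probe were averaged. The log2 of each array's 75th percentile over non-control probes was then subtracted (Python 3.11.15, numpy 2.4.6, pandas 2.3.3). A probe was measured where the scanner software called it well above background on both arrays. With 1 dim array, the difference is a bound, taken against the higher of that array's lowest signal well above background and the probe's own signal. Genes were named through RefSeq accessions (GRCm38.p6), the brightest probe by mean level stood for its gene, and 2-fold was the threshold for counts, bounds included. The probe's exon or untranslated region was not assigned. Normexp with an offset of 50 used limma 3.58.1 in R 4.3.3. The calculation was tested on simulated data.

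The members and lists were chosen with earlier results of these data known. From each list, the text names up to 6 genes that reached 2-fold in any comparison, taken by size of difference, and Hc, Cd55, Cd59a, Il6, Stat3, Socs3, Cebpb and Cebpd whatever their values; 1 gene of this rule is not reported here. C1qa, Fga, Fgg and the marker genes were named after their values were seen.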

Additional observations from a re-analysis of the deposited data

How the results depend on the processing

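No paired analysis was possible because each group has 1 array, and for the same reason no array could be left out. The 9 alternatives gave no member difference of 2-fold or more with the opposite sign. Of 104 summary values 96 stayed close to the reported ones. The member median for male Tg over male WT was 2.50 log2 with normexp and the 75th percentile and 2.58 log2 with normexp and quantile normalization. In the same order of settings it was −1.06 and −0.98 log2 between male Tg E2 and male Tg, and 1.58 and 1.58 log2 for male Tg E2 over male WT. Normexp adds an offset to every signal, so differences of dim probes come out smaller. Without the filter on background the median of male Tg E2 over male WT was 2.29 log2, as Cfd then entered it. At a 1.5-fold threshold all 9 members were lower on female Tg than on male Tg. The count of members at least 2-fold lower on male Tg E2 than on male Tg ranged from 4 to 6 over the other settings. With the percentile taken over probes above background on all 4 arrays, the share of calls that were higher on male Tg than on male WT was 79.5% in place of 68.6%, the median of all genes was −0.02 in place of −0.21 log2, and Serping1 reached 1.05 log2. Under the filter at each array's median signal, Cfd had no value against male WT. Differences that rest on a probe near background carry larger errors.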

Other observations

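The remaining marker lists gave the following values. Of 10 beta cell markers, which include insulin and its regulators, 6 were at least 2-fold lower on male Tg than on male WT and none was higher by that amount (median −1.62 log2), where 8.71% of all genes were lower. Their summed signal went the other way, with 2612 on male Tg E2, 2483 on female Tg, 3351 on male Tg and 2645 on male WT, and Ins1 and Ins2 were 0.67 and 0.73 log2 higher on male Tg than on male WT. On male Tg E2, 3 of the 10 were at least 2-fold higher than on male Tg (median 0.45 log2), and on female Tg 4 were (median 0.68 log2). Over all genes 2.97% and 3.95% were higher in these comparisons. Ductal markers were at least 2-fold higher on male Tg than on male WT for 8 of 13 genes and lower for 1 (median 1.03 log2), 3 were at least 2-fold lower on male Tg E2 than on male Tg, and 8 were at least 2-fold lower on female Tg than on male Tg (median −1.10 log2). The ductal sums were 314 on male Tg E2, 123 on female Tg, 464 on male Tg and 148 on male WT, and the part of ductal RNA in the members' values was not tested. Of 10 endothelial markers, 2 were at least 2-fold higher on male Tg than on male WT (median 0.50 log2), close to the 19.0% of all genes.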
